A study of Mus musculus with 13 samples.

Results

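The E2F and Dp transcription factor family was examined in 10 gene-level RNA-seq libraries of mouse mammary tissue. Its 10 members, E2f1 to E2f8, Tfdp1 and Tfdp2, were found by symbol in the deposited table, which holds 38279 symbols. All 10 members passed the filter on low counts and were among the 20101 genes tested. The 6 tumour libraries (tumours 1 to 6, aged 25, 32, 39, 19, 53 and 25 weeks) came from Cre-positive mice whose Fbxw7 alleles were excised after mating at 12 weeks. Fbxw7 encodes the substrate-binding part of a ubiquitin ligase. The 4 control libraries were whole wild-type mammary glands of Cre-negative mice mated at the same age, and were taken at 20 weeks (glands 1 to 3) or 40 weeks (gland 4). The sources used here do not name the promoter of the Cre transgene. Purified epithelium was not analysed here. Tumours differ from glands in genotype and tissue state at the same time, so these cannot be told apart. Ages overlap between the groups, and a fit with age as a covariate is given for the members called. Among the glands only gland 4 differs in age, so age and other traits of that library cannot be told apart there.

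E2F proteins bind DNA and switch genes of cell cycle entry and DNA synthesis on or off. E2F1, E2F2 and E2F3 are the activators, held in check by the retinoblastoma protein until cyclin-dependent kinases phosphorylate it. E2F4 and E2F5 work mainly as repressors with the pocket proteins p107 and p130, and E2F6 represses with Polycomb-group proteins and without a pocket protein. E2F7 and E2F8, the atypical members, repress late in S phase without a Dp partner, while the other members bind DNA as heterodimers with the products of Tfdp1 or Tfdp2.

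Total counts ranged from 13723065 (gland 3) to 48353114 (gland 2), and the members had between 6 counts (E2f2 in gland 4) and 6865 counts (Tfdp1 in tumour 3) in a library. Levels are given as CPM (counts scaled to a common library total) with TMM factors, which corrects for libraries in which a few genes take many counts. Fbxw7 itself lay between 14.3 and 83.6 CPM in glands and between 15.1 and 47.3 CPM in tumours. The excised exons are not named in the labels, so this gene total does not check the genotype. Tumours 1 and 6 and gland 4 stood apart. Markers of salivary gland took 52.4% of the counts in tumour 1 and 19.6% in tumour 6, against at most 0.0530% in the other 8 libraries. Gland 4 had 37.5% mitochondrial counts and 8.82% skeletal muscle marker counts, against 8.07% to 14.0% and at most 1.58% elsewhere. The summed level of 10 luminal epithelial markers was 458 to 766 CPM in glands and 1752 to 4084 CPM in tumours, and that of 13 adipocyte markers was 11458 to 45909 CPM in glands and 19.2 to 1775 CPM in tumours. In bulk tissue, fewer cells of a type and less RNA per cell cannot be told apart.

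The start regions of 4 members are shown because they differ in whether they hold the short words that E2F proteins are known to bind. RefSeq windows (250 bases before to 50 bases after a start, build GRCm38.p6) were found for 8 of the 10 members and not for E2f4 and E2f5. Each window was searched on both strands for 4 forms of the E2F site: TTGGCGC (in 2.45% of all 32851 windows), TTCCCGC (4.60%), TTCGCGC (1.59%) and TTGCCGC (1.81%). Capitals mark the matches.
E2f7, chr10:110745189-110745488, plus strand: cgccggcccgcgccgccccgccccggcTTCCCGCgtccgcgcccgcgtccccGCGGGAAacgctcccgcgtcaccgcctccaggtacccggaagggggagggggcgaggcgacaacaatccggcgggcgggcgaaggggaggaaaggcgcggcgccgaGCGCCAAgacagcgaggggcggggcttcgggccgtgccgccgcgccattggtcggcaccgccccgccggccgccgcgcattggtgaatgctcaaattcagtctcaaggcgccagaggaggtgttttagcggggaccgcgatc
E2f8, chr7:48881547-48881846, minus strand: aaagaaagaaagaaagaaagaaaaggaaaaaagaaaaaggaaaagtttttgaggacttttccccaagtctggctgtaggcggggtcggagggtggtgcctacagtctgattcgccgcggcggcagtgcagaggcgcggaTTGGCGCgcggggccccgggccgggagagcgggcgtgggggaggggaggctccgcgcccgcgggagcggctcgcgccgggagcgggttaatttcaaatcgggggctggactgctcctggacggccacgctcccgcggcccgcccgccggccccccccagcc
E2f3, chr13:29986014-29986313, minus strand: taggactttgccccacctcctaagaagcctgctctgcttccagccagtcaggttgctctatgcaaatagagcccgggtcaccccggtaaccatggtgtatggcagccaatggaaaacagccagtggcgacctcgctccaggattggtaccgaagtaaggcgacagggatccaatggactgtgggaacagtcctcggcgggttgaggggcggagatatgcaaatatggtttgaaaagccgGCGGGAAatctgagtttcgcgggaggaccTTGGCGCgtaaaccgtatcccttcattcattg
E2f6, chr12:16810715-16811014, plus strand: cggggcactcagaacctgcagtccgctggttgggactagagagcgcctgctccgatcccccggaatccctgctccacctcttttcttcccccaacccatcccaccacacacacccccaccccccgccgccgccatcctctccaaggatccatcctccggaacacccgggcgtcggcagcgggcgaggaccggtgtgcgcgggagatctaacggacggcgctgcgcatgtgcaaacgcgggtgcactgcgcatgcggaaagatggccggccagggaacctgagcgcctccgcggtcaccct
E2f7 had 3 matches, which began 223, 198 and 92 bases before its start. E2f8 had 1 match, which began 111 bases before its start, and the more upstream of the 2 listed E2f3 windows had 2 matches. The E2f6 window had none. In all, 5 of the 8 members with a window held at least 1 of the 4 words (E2f2, E2f3, E2f7, E2f8 and Tfdp1), and E2f1, E2f6 and Tfdp2 held none in the windows listed. Whether a listed window covers the main start of its gene was not checked. The lack of a match in the E2f1 window thus says nothing about other starts of E2f1. Over all genes with a window the share with a match was 10.9% of 27025. A match describes the letters of the window, and binding was not measured.

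Tumours had more RNA of the atypical member E2f7 and less of the repressor E2f6 than wild-type glands. E2f7 was 3.05-fold higher and E2f6 3.92-fold lower in the fit over all genes. These were the 2 members past the threshold (two-sided quasi-likelihood test of edgeR, with p adjusted after Benjamini and Hochberg and called below 0.05). Thus 2 of 10 members were called, beside 15.1% of all genes tested, 1 of them higher (6.89% of all genes) and 1 lower (8.19%). At an unadjusted p below 0.05, 6 members passed (33.4% of all genes), 4 of them higher (17.3%) and 2 lower (16.1%). The median log2 fold change of the 10 members was 0.88, against 0.17 for all genes tested. In 3 members no tumour overlapped any gland, E2f7 above and E2f4 and E2f6 below, where 14.0% of all genes tested had groups that did not overlap (6.54% above and 7.50% below). Without tumours 1 and 6, the libraries with salivary transcripts, E2f5, E2f7, E2f8 and Tfdp1 were called higher and E2f6 lower. With age as a covariate E2f6 and E2f7 were the members called, at log2 differences of -2.00 (adjusted p = 0.0255) and 1.71 (adjusted p = 0.0431, edgeR). The number of members called was 0 without gland 1 or gland 4, 1 without gland 2, gland 3 or tumour 4, and 5 without tumour 1. All genes called moved too, to 1053 of 21114 without gland 1 and 2419 of 21271 without gland 4. They were 1496 of 20833 without gland 2, 1769 of 20901 without gland 3 and 1837 of 19504 without tumour 4. They were 3521 of 19779 without tumour 1, 4255 of 19585 without tumours 1 and 6 and 1899 of 20101 with age as a covariate.

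**Figure D1:**
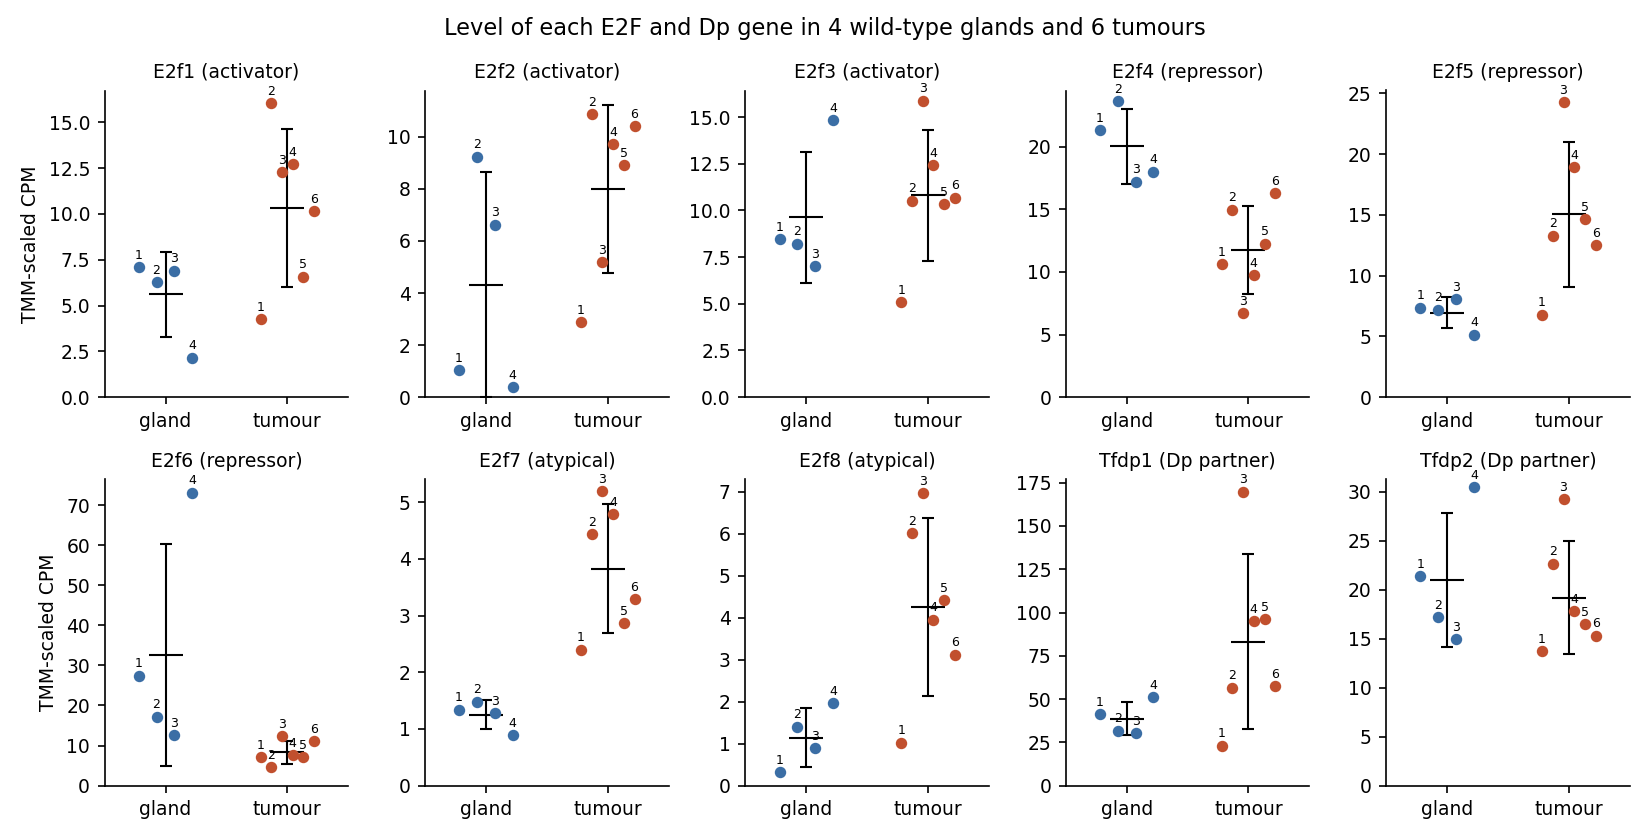
Each panel plots 1 member, with TMM-scaled CPM on the y axis and the 4 glands (blue) and 6 tumours (red) as points numbered by library. The black bars give mean ± SD. All tumours lie above all glands for E2f7 and below all glands for E2f4 and E2f6.

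**Figure D2:**
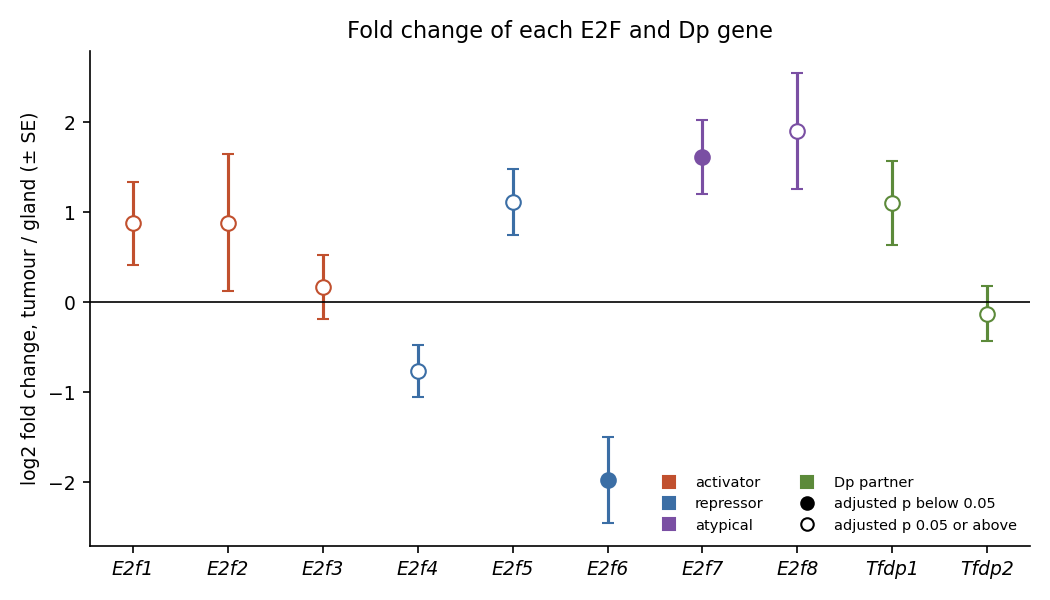
The y axis gives the log2 fold change of tumours over glands with its standard error for each member, coloured by class. Filled points passed an adjusted p of 0.05 in edgeR (E2f6 at -1.97 and E2f7 at 1.61), and open points did not.

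Among the activators, no member passed the test. E2f1, which drives S-phase genes, was at 7.08, 6.29, 6.91 and 2.16 CPM in glands 1 to 4. In the tumours it ranged from 4.25 CPM (tumour 1) through a median of 11.2 CPM to 16.0 CPM (tumour 2). In all, 4 of 6 tumours (2, 3, 4 and 6) lay above every gland, and tumours 1 and 5 lay within the gland range. The log2 difference was 0.88 ± 0.46 (SE; adjusted p = 0.200, edgeR).

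E2f2, an activator that also acts in blood cell precursors and lymphocytes, split the glands. It was at 9.24 and 6.63 CPM in glands 2 and 3 but at 1.03 and 0.38 CPM in glands 1 and 4. In the tumours it ranged from 2.88 CPM (tumour 1) through a median of 9.31 CPM to 10.9 CPM (tumour 2). The log2 difference was 0.88 ± 0.76 (SE; adjusted p = 0.424, edgeR). It moved to 0.45 without gland 4, 0.55 without gland 1 and 1.57 without gland 2, and to 1.61 with limma-voom, and passed in none of these. Without glands 2 and 3, a setting added after the data were seen, it was 3.46 and passed (adjusted p = 0.0438, edgeR). Lymphocyte markers split the glands in the same way. The summed level of 12 T and NK cell markers was 769 and 622 CPM in glands 2 and 3, and 25.9 and 3.43 CPM in glands 1 and 4. That of 8 B cell markers was 415 and 446 CPM against 13.2 and 1.78 CPM. Their part in the E2f2 level of those glands was not tested. Tumours 2, 4 and 6 had E2f2 at 9.71 to 10.9 CPM with T and NK cell sums of 5.53 to 21.4 CPM and B cell sums of 3.47 to 10.9 CPM. Tumour 5 had the highest T and NK cell and B cell sums of the tumours (119 and 144 CPM) with E2f2 at 8.91 CPM. Tumours 1 and 3 had E2f2 at 2.88 and 5.19 CPM. Their T and NK cell sums were 16.4 and 14.3 CPM and their B cell sums 5.48 and 8.14 CPM.

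E2f3, whose gene gives a longer and a shorter protein from separate starts, differed least among the activators. It was at 8.47, 8.23, 7.02 and 14.8 CPM in glands 1 to 4. In the tumours it was at 5.07, 10.5, 15.9, 12.4, 10.3 and 10.7 CPM (tumours 1 to 6). Gland 4 was above 5 of the 6 tumours. The log2 difference was 0.17 ± 0.36 (SE; adjusted p = 0.757, edgeR), and gene totals do not separate its isoforms.

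Among the repressors, E2f4 and E2f6 were lower in all 6 tumours than in any gland, and E2f5 was higher in 5 of 6 tumours than in any gland. Only E2f6 passed the test. E2f4, the main E2F of resting cells, was at 21.3, 23.6, 17.2 and 18.0 CPM in glands 1 to 4. In tumours 1 to 6 it was at 10.6, 15.0, 6.73, 9.76, 12.3 and 16.3 CPM. The highest tumour (tumour 6) was below the lowest gland (gland 3). The log2 difference was -0.77 ± 0.29 (SE), which missed the threshold (adjusted p = 0.0921, edgeR). With DESeq2 it passed, at -0.79 (adjusted p = 0.0317).

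E2f5, which is close to E2f4 in structure and binds the same pocket proteins, lay on the other side. It was at 7.36, 7.21, 8.07 and 5.15 CPM in glands 1 to 4. In tumours 1 to 6 it was at 6.79, 13.3, 24.3, 18.9, 14.6 and 12.5 CPM. Every tumour but tumour 1 was above all glands. The log2 difference was 1.12 ± 0.36 (SE; adjusted p = 0.0595, edgeR). It passed without tumour 1 at 1.25 (adjusted p = 0.0230) and without tumours 1 and 6 at 1.34 (adjusted p = 0.0188, edgeR). It also passed with DESeq2 at 1.11 (adjusted p = 0.0191). In edgeR it passed with upper-quartile scaling at 1.25 (adjusted p = 0.0315) and with the stricter filter at 1.15 (adjusted p = 0.0391).

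E2f6 fell in tumours, by 1.97 ± 0.48 on the log2 scale (SE; adjusted p = 0.0226, edgeR). It was at 27.5, 17.2, 12.6 and 73.1 CPM in glands 1 to 4 and at 7.13, 4.57, 12.3, 7.59, 7.05 and 11.1 CPM in tumours 1 to 6. The groups did not overlap, but tumour 3 (12.3 CPM) was almost level with gland 3 (12.6 CPM). The spread among glands followed skeletal muscle markers. The 12 muscle markers summed to 14636, 5684, 60.3 and 152264 CPM in glands 1 to 4, the same order as E2f6, and to 2.97 to 1101 CPM in tumours, and 8 of the 12 were called lower in tumours. Gland 4 also had the highest mitochondrial share (37.5%). The part of muscle tissue in the E2f6 difference was not tested. In gland 3, which had the fewest muscle counts of the glands, E2f6 was above all 6 tumours by a small margin. Leaving out gland 4 gave a log2 difference of -1.26 (adjusted p = 0.0572) and leaving out gland 1 gave -2.05 (adjusted p = 0.0541), and neither passed the threshold in edgeR.

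**Figure D3:**
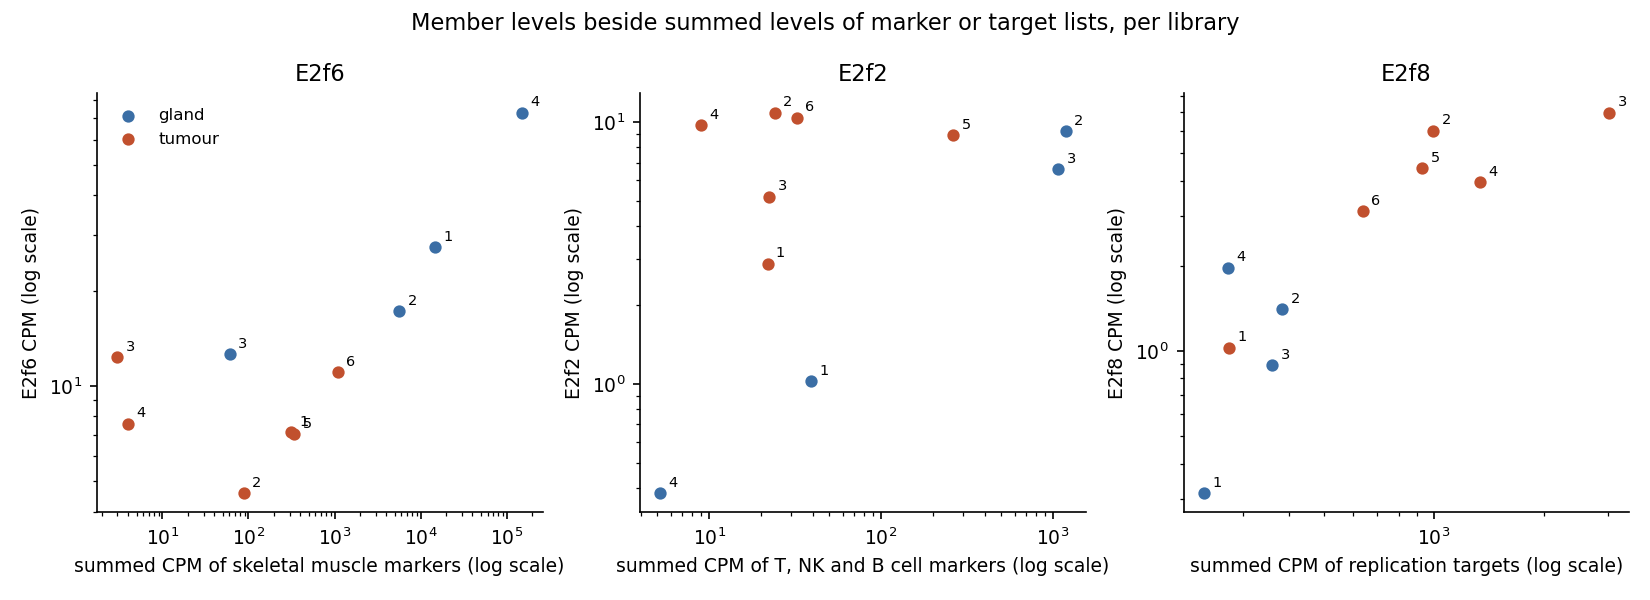
Both axes are logarithmic and each point is 1 library, numbered within its group (glands blue, tumours red). E2f6 CPM is plotted against the summed CPM of 12 skeletal muscle markers, E2f2 against 20 T, NK and B cell markers, and E2f8 against 30 replication targets. Gland 4 is highest in E2f6 and in muscle markers, glands 2 and 3 are highest in lymphocyte markers, and tumour 3 is highest in E2f8 and in replication targets.

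The atypical members were low in every gland. E2f7, which represses E2F1 and S-phase genes in a feedback loop, had 47, 95, 23 and 14 counts in glands 1 to 4, or 1.34, 1.48, 1.28 and 0.89 CPM. In tumours 1 to 6 it was at 2.40, 4.43, 5.19, 4.78, 2.87 and 3.29 CPM. All 6 tumours were above all 4 glands. E2f7 rose by 1.61 ± 0.41 on the log2 scale (SE; adjusted p = 0.0261, edgeR). The call was lost without any 1 of glands 1 to 4 (adjusted p = 0.0724, 0.0662, 0.0728 and 0.0669), without tumour 4 (adjusted p = 0.0519) and with no filter on low counts (adjusted p = 0.0612), at log2 fold changes of 1.42 to 1.70 over the 10 fits that leave out 1 library.

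E2f8 works together with E2f7 on the same sites. It had 11, 90, 16 and 31 counts in glands 1 to 4, or 0.31, 1.40, 0.89 and 1.97 CPM. In tumours 1 to 6 it was at 1.03, 6.02, 6.97, 3.95, 4.43 and 3.12 CPM. Tumours 2 to 6 were above all glands and tumour 1 lay within the gland range. The log2 difference of 1.90 ± 0.64 (SE) was the largest of the family in the upward direction and missed the threshold (adjusted p = 0.0671, edgeR). It passed without tumour 1 at 2.09 (adjusted p = 0.0310, edgeR), with limma-voom at 2.11 (adjusted p = 0.0490) and with DESeq2 at 1.89 (adjusted p = 0.0105). In the GENCODE M21 annotation, 11.2% of the merged E2f8 exons overlap Gm2788 on the other strand. Gm2788 had 1 to 9 counts in glands and 14 to 138 in tumours. The labels do not say whether strand was kept, so reads of the overlap cannot be told apart.

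Neither Dp partner passed the test. Tfdp1, which encodes the main dimer partner DP1, was at 41.1, 31.9, 30.5 and 51.3 CPM in glands 1 to 4 and at 23.2, 56.6, 170, 94.8, 96.3 and 57.5 CPM in tumours 1 to 6. Tumours 2 to 6 were above all glands and tumour 1 was below all of them. The log2 difference was 1.10 ± 0.47 (SE; adjusted p = 0.128, edgeR). It passed without tumour 1 at 1.29 (adjusted p = 0.0391) and without tumours 1 and 6 at 1.42 (adjusted p = 0.0244, edgeR), and was 0.77 without tumour 3. Tfdp2, the alternative partner, was at 21.4, 17.2, 14.9 and 30.5 CPM in glands and at 13.7, 22.6, 29.3, 17.8, 16.5 and 15.3 CPM in tumours. Its groups overlapped, with a log2 difference of -0.13 ± 0.30 (SE; adjusted p = 0.789, edgeR) that turned to 0.01 under upper-quartile scaling and to 0.05 without gland 4.

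Levels of different genes were compared per kilobase of merged exons (GENCODE M21, all 10 members matched). In glands the order by mean was Tfdp1 (10.5 ± 2.62 CPM per kilobase, SD, n = 4), E2f4 (8.17 ± 1.22), E2f6 (5.75 ± 4.89), E2f5 (3.90 ± 0.705), E2f1 (1.78 ± 0.736), E2f3 (1.77 ± 0.647), Tfdp2 (1.50 ± 0.489), E2f2 (0.885 ± 0.884), E2f8 (0.210 ± 0.130) and E2f7 (0.139 ± 0.0282). Of the neighbours in this order, only E2f5 and E2f1 had ranges of mean ± SD that did not overlap, and E2f4 was above Tfdp1 in gland 2. In tumours the order was Tfdp1 (22.6 ± 13.8, SD, n = 6), E2f5 (8.46 ± 3.35), E2f4 (4.80 ± 1.43), E2f1 (3.27 ± 1.37), E2f3 (1.99 ± 0.646), E2f2 (1.64 ± 0.660), E2f6 (1.46 ± 0.508), Tfdp2 (1.37 ± 0.413), E2f8 (0.782 ± 0.388) and E2f7 (0.425 ± 0.126). The ranges of mean ± SD overlapped for all neighbours in the tumour order. On this scale E2f4 was the most abundant E2f gene in glands 1 to 3 and in tumour 1, E2f6 in gland 4, and E2f5 in tumours 2 to 6. Merged exons join all annotated transcripts of a gene, and their length can differ from that of the transcripts expressed. By CPM without length the top E2f gene was another in gland 1 (E2f6), tumour 2 (E2f1) and tumour 6 (E2f4), and the same elsewhere.

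The summed level of the 8 E2f genes was nearly the same in both groups, at 22.6 ± 3.38 CPM per kilobase in glands (SD, n = 4) and 22.8 ± 5.44 in tumours (SD, n = 6), while its make-up differed. Activators made up 20.2% ± 5.77 of this sum in glands (12.9% to 25.6%) and 29.6% ± 4.87 in tumours (22.6% to 36.7%). Repressors made up 78.3% ± 5.88 (72.8% to 85.4%) and 65.3% ± 5.58 (57.0% to 73.9%), and both of these classes overlapped between the groups. Atypical members made up 1.53% ± 0.408 and 5.11% ± 1.22, with 0.944% to 1.88% in glands and 3.58% to 6.57% in tumours, which did not overlap. Their summed level did overlap, at 0.207 to 0.461 CPM per kilobase in glands and 0.455 (tumour 1) to 1.86 in tumours. The sum of all E2f genes was lowest in tumour 1, at 12.7 CPM per kilobase, against 21.4 to 28.3 in tumours 2 to 6. Among glands it was highest in gland 4, at 27.1, against 18.9 to 22.5 in glands 1 to 3. In gland 4 E2f6 took 47.6% of the sum. Within the repressors, the E2f5 share went from 17.9% ± 5.47 to 36.2% ± 7.84, the E2f4 share from 36.7% ± 6.78 to 22.5% ± 8.68 and the E2f6 share from 23.7% ± 16.6 to 6.68% ± 2.39. Shares of 1 sum are not independent of each other and depend on the exon lengths used, and no test was made on these sums.

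**Figure D4:**
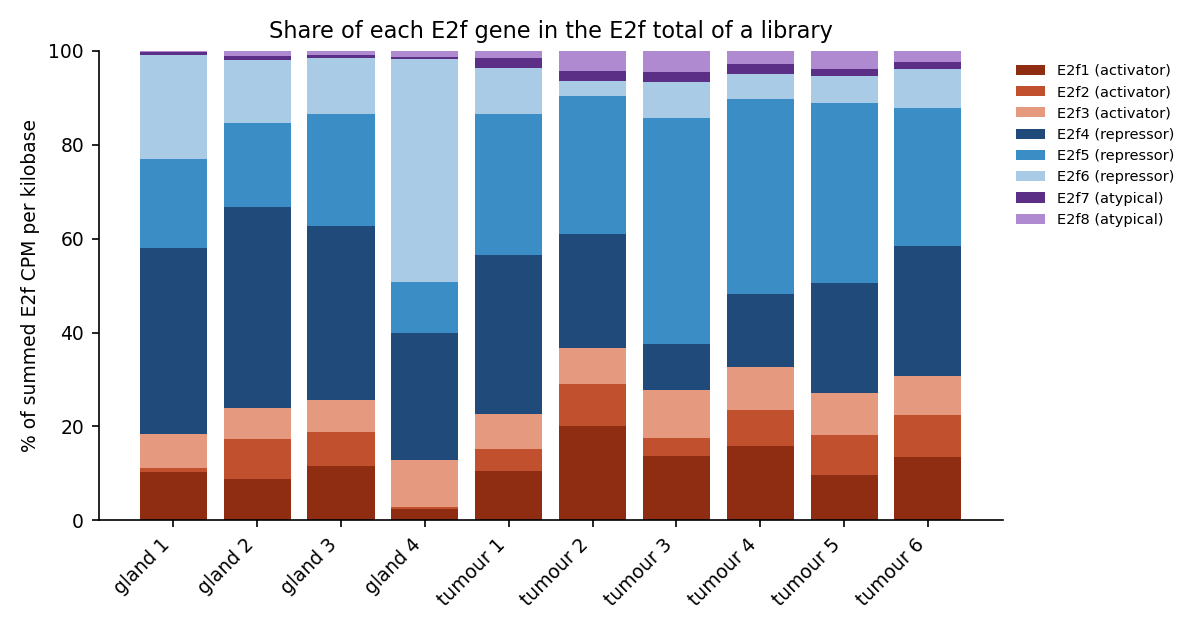
Each bar is 1 library and divides its summed E2f level (CPM per kilobase of merged exons, y axis in percent) among the 8 E2f genes, with activators in red, repressors in blue and atypical members in purple. The atypical share is 0.944% to 1.88% in glands and 3.58% to 6.57% in tumours, and E2f5 takes the largest share in tumours 2 to 6.

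The ratio of a pair of members within a library does not depend on scaling between libraries, and gene length cancels between groups. The 6 pairs were compared by an exact permutation test over the 210 splits of 10 libraries into 4 and 6 (two-sided, on log2 ratios of counts plus 1, adjusted over the 6 pairs by Benjamini-Hochberg; the smallest p is 0.00476). Relative to E2f4, E2f5 was 3.58-fold higher in tumours (log2 difference 1.84, exact p = 0.00952, adjusted p = 0.0286), and 6 of 6 tumours were above all glands. The geometric mean ratio of E2f5 to E2f4 was 0.346 in glands and 1.24 in tumours, as counts. E2f1 was 3.25-fold higher relative to E2f4 (log2 difference 1.70, exact p = 0.0143, adjusted p = 0.0286), with 6 of 6 tumours above all glands, although tumour 1 (log2 ratio -1.31) was level with gland 3 (-1.31). E2f8 was 6.61-fold higher relative to E2f4 (log2 difference 2.73, exact p = 0.0143, adjusted p = 0.0286), with 5 of 6 tumours above all glands. These ratios share E2f4, which was lower in all 6 tumours than in any gland, so their common direction is not independent. Without gland 1 the adjusted p of these 3 ratios was 0.0714, at log2 differences of 1.84 for E2f5, 1.82 for E2f1 and 2.18 for E2f8.

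The other 3 pairs missed the threshold. E2f3 relative to E2f4 had a log2 difference of 0.96 (exact p = 0.0667, adjusted p = 0.0800), with 3 of 6 tumours above all glands. Tfdp1 relative to Tfdp2 had a log2 difference of 1.01 (exact p = 0.0333, adjusted p = 0.05, not below the threshold), with 5 of 6 tumours above all glands. This ratio was steady in glands, at log2 values of 0.94, 0.89, 1.03 and 0.75, and spread in tumours from 0.75 (tumour 1) to 2.54 (tumours 3 and 5). Without tumour 1 it passed, at 1.24 (exact permutation test, adjusted p = 0.0238). The atypical members E2f8 and E2f7 had a log2 difference of 0.37 between them (exact p = 0.576, adjusted p = 0.576), and the sign turned without gland 1 (-0.18).

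**Figure D5:**
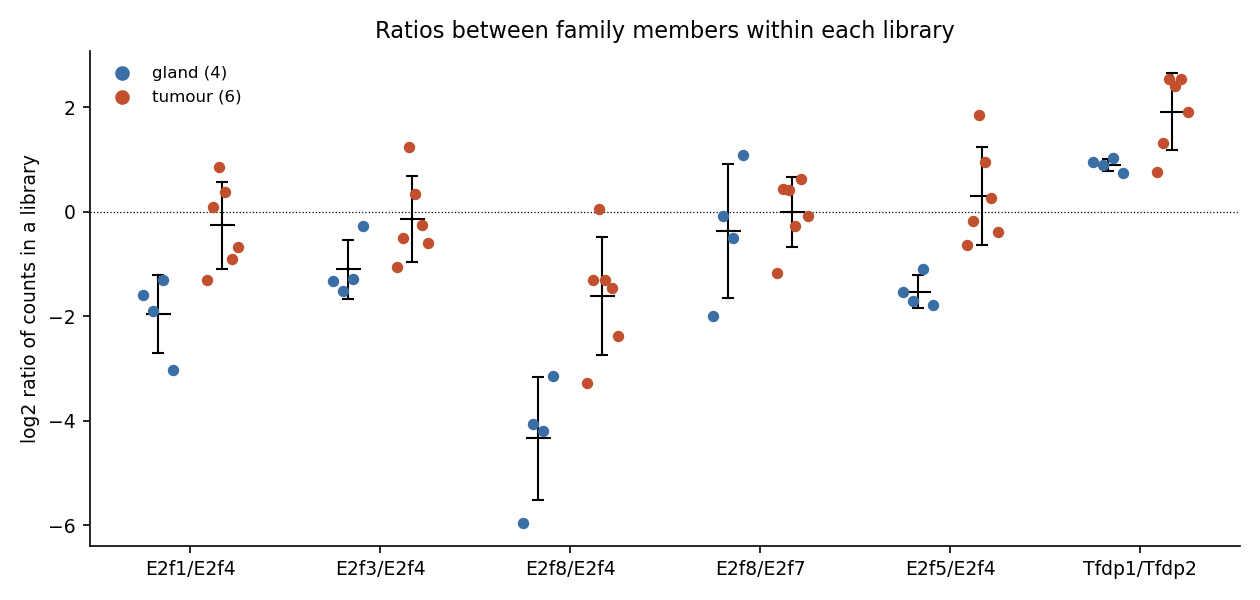
The y axis gives the log2 ratio of counts between the members of a pair in each library, with glands in blue, tumours in red and bars for mean ± SD. Ratios of E2f1 and E2f5 to E2f4 are higher in 6 of 6 tumours than in any gland, and that of E2f8 to E2f4 in 5 of 6.

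Tumours 1 and 3 marked the ends of the family's range. Tumour 1 was the lowest tumour for E2f1, E2f2, E2f3, E2f5, E2f7, E2f8, Tfdp1 and Tfdp2. It was also the tumour with the most salivary counts (52.4%) and with the lowest sum of 30 replication targets, at 275 CPM, which lies inside the gland range of 234 to 384 CPM. Tumour 3 was the highest tumour for E2f3, E2f5, E2f6, E2f7, E2f8, Tfdp1 and Tfdp2 and the lowest for E2f4. Its replication target sum was 3020 CPM, against 640 to 1341 CPM in tumours 2, 4, 5 and 6. Whether salivary tissue plays a part in the levels of tumour 1 was not tested.

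The genes with the level pattern most like a member over the 10 libraries were found by Pearson correlation of log2 CPM among 11122 genes. These values describe libraries that share their group difference and scaling. For E2f8 they were Pcgf6 (r = 0.949), Naa40 (0.945), Fbxo5 (0.940) and Pttg1 (0.940). Pcgf6 encodes a Polycomb protein that partners E2F6, and Fbxo5 and Pttg1 encode inhibitors of the anaphase-promoting complex and of separase. For E2f4 they were Ap2a1 (0.974), Ccdc97 (0.970), Bag6 (0.967) and Neurl4 (0.964). For E2f1 they were Sulf2 (0.963), Ralb (0.948), Slc39a6 (0.943) and Ctnna1 (0.942), none of which is a replication gene on the lists used here.

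Among the pocket proteins that E2Fs bind, Rbl2 (p130), the partner of E2F4 and E2F5 in resting cells, had 35.7 ± 6.67 CPM in glands (SD, n = 4) and fell to 13.4 ± 6.05 CPM in tumours (SD, n = 6). It was below all glands in 6 of 6 tumours. Its log2 fold change was -1.42 ± 0.34 (SE; adjusted p = 0.0225, edgeR), and the call was lost without gland 1 or 2 (adjusted p = 0.0642 and 0.0660) and with age as a covariate (adjusted p = 0.0514). Rbl1 (p107), itself an E2F target, had a log2 difference of 1.13 ± 0.51 and Rb1 of -0.12 ± 0.55 (adjusted p = 0.144 and 0.890, edgeR). That of Rb1 was 0.06 without tumour 1 and 0.08 without tumour 4.

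Upstream of the pocket proteins, 7 of 12 G1 cyclins, kinases and their regulators rose and 1 fell (median log2 fold change 1.37, all genes 0.17). The count of calls was 1, 3, 2 and 3 without glands 1, 2, 3 and 4, 5 without tumour 4, 8 without tumours 1 and 6, 0 without glands 2 and 3, 3 with age as a covariate and 5 with no filter. Ccnd1, the cyclin D1 gene, rose from 33.1 ± 2.59 to 417 ± 249 CPM. Of 7 CDK inhibitors, 1 rose and 1 fell (median -0.23). Cdkn2a, the tumour suppressor gene that rose, did not pass when any 1 of the 4 glands was left out. Cdkn2c, which encodes an inhibitor of the cyclin D kinases, fell from 147 ± 90.8 to 13.1 ± 5.40 CPM, below all glands in 6 of 6 tumours (log2 fold change -3.49 ± 0.53, SE; adjusted p = 0.00432, edgeR), and passed in all 10 fits without 1 library. Adipocyte markers had the same order in glands 1 to 4 (45909, 30396, 34250 and 11458 CPM in sum) as Cdkn2c (246, 154, 160 and 25.9 CPM), and 12 of 13 were called lower in tumours. Their part in the Cdkn2c difference was not tested. Of 7 genes of the MuvB complex and its partners, which joins E2F4 and p130 in resting cells and B-Myb and FoxM1 later in the cycle, 2 rose and 1 fell (median 0.62). These 3 calls became 0, 1, 0 and 1 without glands 1, 2, 3 and 4, and 1 without tumour 2, 4, 5 or 6. They became 0 with age as a covariate and 1 with no filter. Mybl2, the B-Myb gene, rose from 0.781 ± 0.688 to 4.94 ± 1.75 CPM (log2 fold change 2.63 ± 0.68, SE; adjusted p = 0.0272, edgeR), which was lost without gland 1 or 3 (adjusted p = 0.0881 and 0.0726) and with age as a covariate (adjusted p = 0.0517).

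Of 10 genes of the E2F6 repressor complex 1 was called higher and none lower in edgeR, with 3 higher and 0 lower at an unadjusted p below 0.05 (median 0.40). Without tumour 1 the number was 2. Pcgf6 rose from 5.07 ± 1.66 to 14.7 ± 5.31 CPM (log2 fold change 1.54 ± 0.39, SE; adjusted p = 0.0256, edgeR). Leaving out gland 1, 2 or 3, or tumour 4, lost this call (adjusted p of 0.0852, 0.0769, 0.0702 and 0.0505). Of 8 germline genes chosen as targets of E2F6, 2 had enough counts to be tested. Sycp3, of the meiotic chromosome axis, fell from 10.9 ± 6.50 to 1.08 ± 1.04 CPM (log2 fold change -3.36 ± 0.78, SE; adjusted p = 0.0191, edgeR), lost without gland 1 (adjusted p = 0.0637). The cohesin gene Stag3 was at 0.112 ± 0.109 and 0.347 ± 0.219 CPM (adjusted p = 0.221, edgeR).

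Of 30 targets of DNA replication 13 were called higher and none lower in edgeR, 29 and 0 at an unadjusted p below 0.05, with a median log2 fold change of 1.91. Of all genes tested, 6.89% were called higher, and 17.3% were higher at an unadjusted p below 0.05. Rrm2, a subunit of ribonucleotide reductase, rose from 4.57 ± 2.29 to 37.3 ± 32.3 CPM (log2 fold change 3.03 ± 0.66, SE; adjusted p = 0.0154, edgeR), lost without gland 1 (adjusted p = 0.0542). Of 18 mitotic targets 16 were higher and none lower (18 and 0 at an unadjusted p below 0.05), with a median of 3.32. Cenpe, a kinetochore motor, rose from 2.28 ± 1.45 to 28.2 ± 18.2 CPM (log2 fold change 3.62 ± 0.75, SE; adjusted p = 0.0128, edgeR). Without tumours 1 and 6 the counts were 28 of 30 and 18 of 18, without gland 1 they were 1 and 3, and without tumour 1 they were 28 and 18. Without gland 2, 3 or 4 they were 8, 5 and 4 replication targets, and 9 and 10 mitotic targets without glands 3 and 4. All genes called went from 3030 to 1053 without gland 1. Luminal epithelial markers rose beside these lists, 8 of 10 called (median 2.21), and their part in these counts was not tested.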

How the data were processed

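PolyA-selected RNA of whole tissue was sequenced, per the labels' protocols. The authors deposited whole-number read counts per gene symbol for 10 libraries, with no scaling visible in the totals. Per the submitters' processing notes, Salmon 1.2.0, DESeq and the mm9 build were used, with no role given, and the step from transcripts to genes is not described in the labels. If the values are rounded estimates, reads shared by similar genes were divided by a model.

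The test was that of edgeR 4.0.16, run in R 4.3.3, with filterByExpr defaults, TMM scaling and no covariate. It was a quasi-likelihood F test of tumours over glands, with Benjamini-Hochberg adjustment over 20101 genes and a threshold of 0.05. The test was first checked on simulated data, in which DESeq2 made 73 false calls and edgeR 1. Of 67 genes with a true 2-fold change edgeR recovered 0 and DESeq2 6. For a 4-fold change these were 11 and 38 of 67, and for an 8-fold change 34 and 59 of 66. Far fewer genes changed in the simulation than were called here, so these shares do not carry over directly. Standard errors are the log2 fold change over the square root of F. The biological coefficient of variation was 0.707, which limits the power, in the simulation also for 4-fold and 8-fold changes. A member that did not pass is thus not shown to be unchanged. Nothing in the labels states that every library is a separate animal, although the tumours carry different numbers and most differ in age. The p-values measure the spread among these libraries. Pair ratios used an exact permutation test.

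Other settings tried were DESeq2 1.42.0, limma-voom (limma 3.58.1), upper-quartile or RLE scaling, no filter, a stricter filter (1 CPM in 4 libraries), age as a covariate, salivary genes removed, other pseudocounts for ratios, and leaving out libraries. Leaving out glands 2 and 3, or tumours 1 and 6 with gland 4, was added after the data were seen. The members, lists and tests were chosen with earlier results of these data known. Named genes were all members, the pocket proteins, up to 3 called genes per direction of each list (of which a part is named) or, with fewer than 2 called, the 2 most abundant, and the 4 genes most correlated with E2f1, E2f4 and E2f8 among those with a mean of at least 5 CPM, without unnamed gene models. A list named by this rule is not reported here. Markers of basal, fibroblast, endothelial and macrophage cells were also listed. Their sums were 174 to 257, 3608 to 7867, 205 to 260 and 357 to 1358 CPM in glands and 116 to 4447, 225 to 6653, 45.4 to 458 and 456 to 3036 CPM in tumours. RefSeq windows and GENCODE M21 exon lengths are on GRCm38, another build than mm9, and were matched by symbol only.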

Additional observations from a re-analysis of the deposited data

Results flagged for a closer look

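E2f1 in gland 4, at 2.16 CPM, stood apart from the other 3 glands, at 6.29 to 7.08 CPM. Its gap to the nearest of them was 0.840 of the range of the 4 glands, just above Dixon's critical value for 4 samples. Of 32 groups of values checked in this way 1 stood out, where chance alone gives about 1 in 20. Gland 4 also had the highest mitochondrial (37.5%) and muscle marker (8.82%) shares of the counts. Without it the log2 difference of E2f1 was 0.56.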

How the results depend on the processing

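No paired analysis was possible because the labels link no tumour to a gland, and the groups came from Cre-positive and Cre-negative mice. The number of members called, 2 with the settings used here, was 5 with DESeq2 (E2f4 to E2f8), 1 with no filter, 5 without tumours 1 and 6, 5 when gland 4 was left out too, and 0 to 5 when 1 library was left out. All genes called, 3030 of 20101 with the settings used here, were 5252 of 20101 with DESeq2 and 2474 of 38279 with no filter. They were 4255 of 19585 without tumours 1 and 6, 4640 of 21000 when gland 4 was left out too, and 1053 to 3521 without 1 library. Replication targets called, 13 of 30, were 27 with DESeq2, 20 with upper-quartile scaling, 5 with age as a covariate, 28 without tumours 1 and 6, 26 when gland 4 was left out too, 1 without glands 2 and 3, and 1 to 28 without 1 library. Mitotic targets called, 16 of 18, were 9 with age as a covariate, 6 without glands 2 and 3 and 3 to 18 without 1 library. The log2 differences of the ratios of E2f1, E2f5 and E2f8 to E2f4 were 2.05, 1.97 and 2.94 without glands 2 and 3 and 1.71, 2.16 and 3.73 without tumours 1 and 6 and gland 4. They did not pass there, but the smallest exact p of these designs is 0.0357 and 0.0286 before adjustment over 6 pairs, so this says nothing about stability. Without 1 library they ranged from 1.34 to 1.91, 1.53 to 2.03 and 2.18 to 3.12, that of E2f3 to E2f4 from 0.69 to 1.24, that of E2f8 to E2f7 from -0.18 to 0.85 and that of Tfdp1 to Tfdp2 from 0.88 to 1.24. The Tfdp1 to Tfdp2 ratio passed without tumours 1 and 6, at 1.30. The cause of these changes was not tested. Signs turned for values near 0. E2f3 was at -0.10 without glands 2 and 3. Tfdp2 was at 0.0085 with upper-quartile scaling, 0.029 without tumours 1 and 6, 0.16 when gland 4 was left out too, and -0.28 to 0.048 without 1 library, with gland 4 the one that turned it. Rb1 ranged from -0.58 to 0.078 without 1 library and turned without tumour 1 (0.058) or 4. The E2F6 partner Max ranged from -0.035 (without gland 4) to 0.26, and was at -0.13 without tumours 1 and 6 and gland 4. Among all genes, 45.7% of calls were higher in tumours, 57.9% with upper-quartile scaling, which moved the median of all genes by 0.16, and 34.7% with limma-voom. All genes called, 3030, ranged from 1010 (without glands 2 and 3) to 5252 (DESeq2). Low counts limit E2f2, E2f7 and E2f8, with 6 to 31 counts in gland 4.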
